A study of Drosophila melanogaster with 24 samples.

Results

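Clock neurons of young flies in which the mitochondrial fission gene Drp1 was targeted were compared with clock neurons of young flies in which the inner membrane fusion gene Opa1 was targeted. The comparison uses 6 of the 24 libraries of the study, chosen by their genotype and age labels: 3 young Drp1-mut libraries and 3 young Opa1-mut libraries, over all genes. The study sorted GFP-positive neurons from the brains of male Drosophila melanogaster of 4 genotypes at 2 ages, and counted transcripts as unique molecular identifiers (UMIs, tags that mark each cDNA molecule) at the 5′ end by Smart-seq3. Drp1-mut flies carried CLK856-Gal4, UAS-Cas9, UAS-3XgRNA-Drp1 and UAS-eGFP, and Opa1-mut flies carried UAS-3XgRNA-Opa1 in place of the Drp1 guides. Marf-mut flies, given here only as a further level, carried UAS-3XgRNA-Marf, and Cas9 control flies carried the driver, Cas9 and eGFP without guides. CLK856-Gal4 drives Cas9, guides and eGFP in clock neurons, so all 4 genotypes share the driver, Cas9 and the label, and both mutant groups of the comparison also carry a guide construct. Young flies were about 15 days old and old flies about 35 days. All were kept at 25 °C and dissected at ZT14, 14 h after lights on.

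Mitochondria divide and join all the time. Drp1 is the dynamin-like GTPase that pinches the outer membrane in fission, while outer membranes are fused by the mitofusin Marf and inner membranes by Opa1, which also shapes the cristae. Loss of fission leaves elongated mitochondria and loss of fusion leaves fragmented ones, so the 2 groups were perturbed on opposite sides of the same balance. Clock neurons keep circadian time through the feedback loop of period and timeless, and signal through neuropeptides such as PDF.

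The 3 libraries of a group are sorted pools of about 1000 cells from a single suspension of 80 to 100 brains, with about 750 pg of cDNA used for each. The p-values are set by how much pools sorted from the same suspension vary, and a difference between the Drp1-mut and the Opa1-mut suspension cannot be told apart from a difference of genotype. In such bulk pools, fewer cells of a type and less RNA per cell also cannot be told apart. The 6 libraries held 1315343 to 2889269 UMIs and 9903 to 10940 detected genes. All 9 clock neuron markers and all 6 pan-neuronal markers had UMIs in each of the 6 libraries.

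3 of the 6 libraries stood apart in summed markers. Drp1-mut library 1 held 4230 CPM (UMI counts scaled to library size) of gut digestive enzyme transcripts in sum, with 21 of 30 listed genes present, where the other 5 libraries held 41.8 to 169 CPM. Opa1-mut library 2 held 3920 CPM of odorant-binding protein transcripts, with 26 of 43 present, where the other 5 held 97.8 to 225 CPM. Drp1-mut library 3 was the deepest and had the highest sums of photoreceptor markers, 215 CPM with 13 of 14 markers present and Rh6 at 0, and of fat body and hemocyte markers, 469 CPM with 12 of 15 present and Yp2, Fbp1 and Lsp2 at 0. In the other 5 libraries these sums were 96.9 to 121 CPM and 224 to 340 CPM, with 12 or 13 of 14 and 10 or 11 of 15 markers present. Opa1-mut library 3 was above Opa1-mut libraries 1 and 2 in hemocyte markers such as Hml (31 against 6.11 and 3.33 CPM). The same held for Ppn (43.7 against 6.88 and 9.32 CPM). Pxn, the largest part of the sum, did not follow (189 against 236 and 188 CPM). Glial markers summed to 553 to 747 CPM in Drp1-mut and 514 to 700 CPM in Opa1-mut libraries, with 10 to 12 of 12 present and Mdr65 or Gli at 0 in some. Muscle markers summed to 9.53 to 54 CPM in Drp1-mut and 15.8 to 24.6 CPM in Opa1-mut libraries, with 7 to 11 of 13 present and Mhc at 0 in 4 of the 6. Correlation of log2 CPM was 0.951 to 0.968 within the groups and 0.936 to 0.966 between them, so some libraries were as alike between the groups as within them. The count of called genes is therefore also given with each library left out.

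The guide targets were read first. Drp1, on chromosome 2L from 2581281 to 2585430 (dm6), stood at 119, 73.9 and 103 CPM in young Drp1-mut and at 164, 141 and 129 CPM in young Opa1-mut, against 133, 136 and 160 CPM in young Cas9. All 3 Drp1-mut libraries lay below all Opa1-mut and Cas9 libraries, by a log2 fold change of -0.56 between the mutants (SE 0.17) that did not pass edgeR's quasi-likelihood test after adjustment (adjusted p = 0.494). Opa1, on 2R from 14230611 to 14235449, stood at 133, 152 and 139 CPM in Drp1-mut and at 88.6, 128 and 91.8 CPM in Opa1-mut, against 156, 129 and 143 CPM in Cas9. The Opa1-mut libraries were again the lowest, although library 2 came close to the others (log2 fold change 0.45, SE 0.16, adjusted p = 0.643). Marf, which neither line targets, averaged 120 ± 6.01 CPM in Drp1-mut and 137 ± 1.51 CPM in Opa1-mut (SD, n = 3 each; adjusted p = 0.767). The UMI counts do not tell whether a transcript was edited. On its own strand Opa1 is overlapped by 3 annotation entries, among them the microRNA mir-1016. On the opposite strand CG8468 overlaps Opa1 and Arpc5 overlaps Drp1, so the counts of both targets may hold other reads.

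With the quasi-likelihood F test of edgeR on all genes and Benjamini-Hochberg adjustment, 16 of 7158 genes tested passed an adjusted p of 0.05, which is 0.224% of the genes. 15 of them were lower in Drp1-mut (0.21% of the genes tested) and 1 was higher (0.014%), and all 16 had libraries that did not overlap between the groups. Over all genes tested, 903 (12.6%) had libraries that did not overlap, with 6.33% higher and 6.29% lower in Drp1-mut, 483 (6.75%) had an unadjusted p under 0.05, and the median log2 fold change was 0.001. The genes lower in Drp1-mut than in Opa1-mut include the capsid genes Arc1 and Arc2, the insulin-like peptide gene Ilp3 and the small heat shock gene Hsp27. They also include the synaptotagmin gene Syt7 and the nuclear gene Tspo, whose protein lies in the outer mitochondrial membrane. Below, a gene that fell in Drp1-mut was lower there than in Opa1-mut, whatever its level in Cas9. The mean of the young Cas9 libraries was nearer to Drp1-mut than to Opa1-mut, on the log2 scale, for 15 of the 16 genes, with Syt7 the exception. The Marf-mut mean was nearer to Drp1-mut for 15 as well, with Ilp3 the exception. Cas9 libraries overlapped the Drp1-mut range in 10 genes, the Opa1-mut range in 1 and neither in 5. These placements describe levels and were not tested. They were not counted over all genes tested, so there is no share to set them against. The lines also differed in genes that no guide targets. In young flies mthl8 averaged 0 CPM in Drp1-mut and Opa1-mut, 25.7 CPM in Marf-mut and 62.1 CPM in Cas9. CG34423 averaged 32.1 CPM in Drp1-mut, 48.3 CPM in Opa1-mut, 1.08 CPM in Marf-mut and 0.686 CPM in Cas9. The gene y averaged 228, 212, 172 and 8.95 CPM in the same order. The part of such line differences in the placements was not tested.

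**Figure D1:**
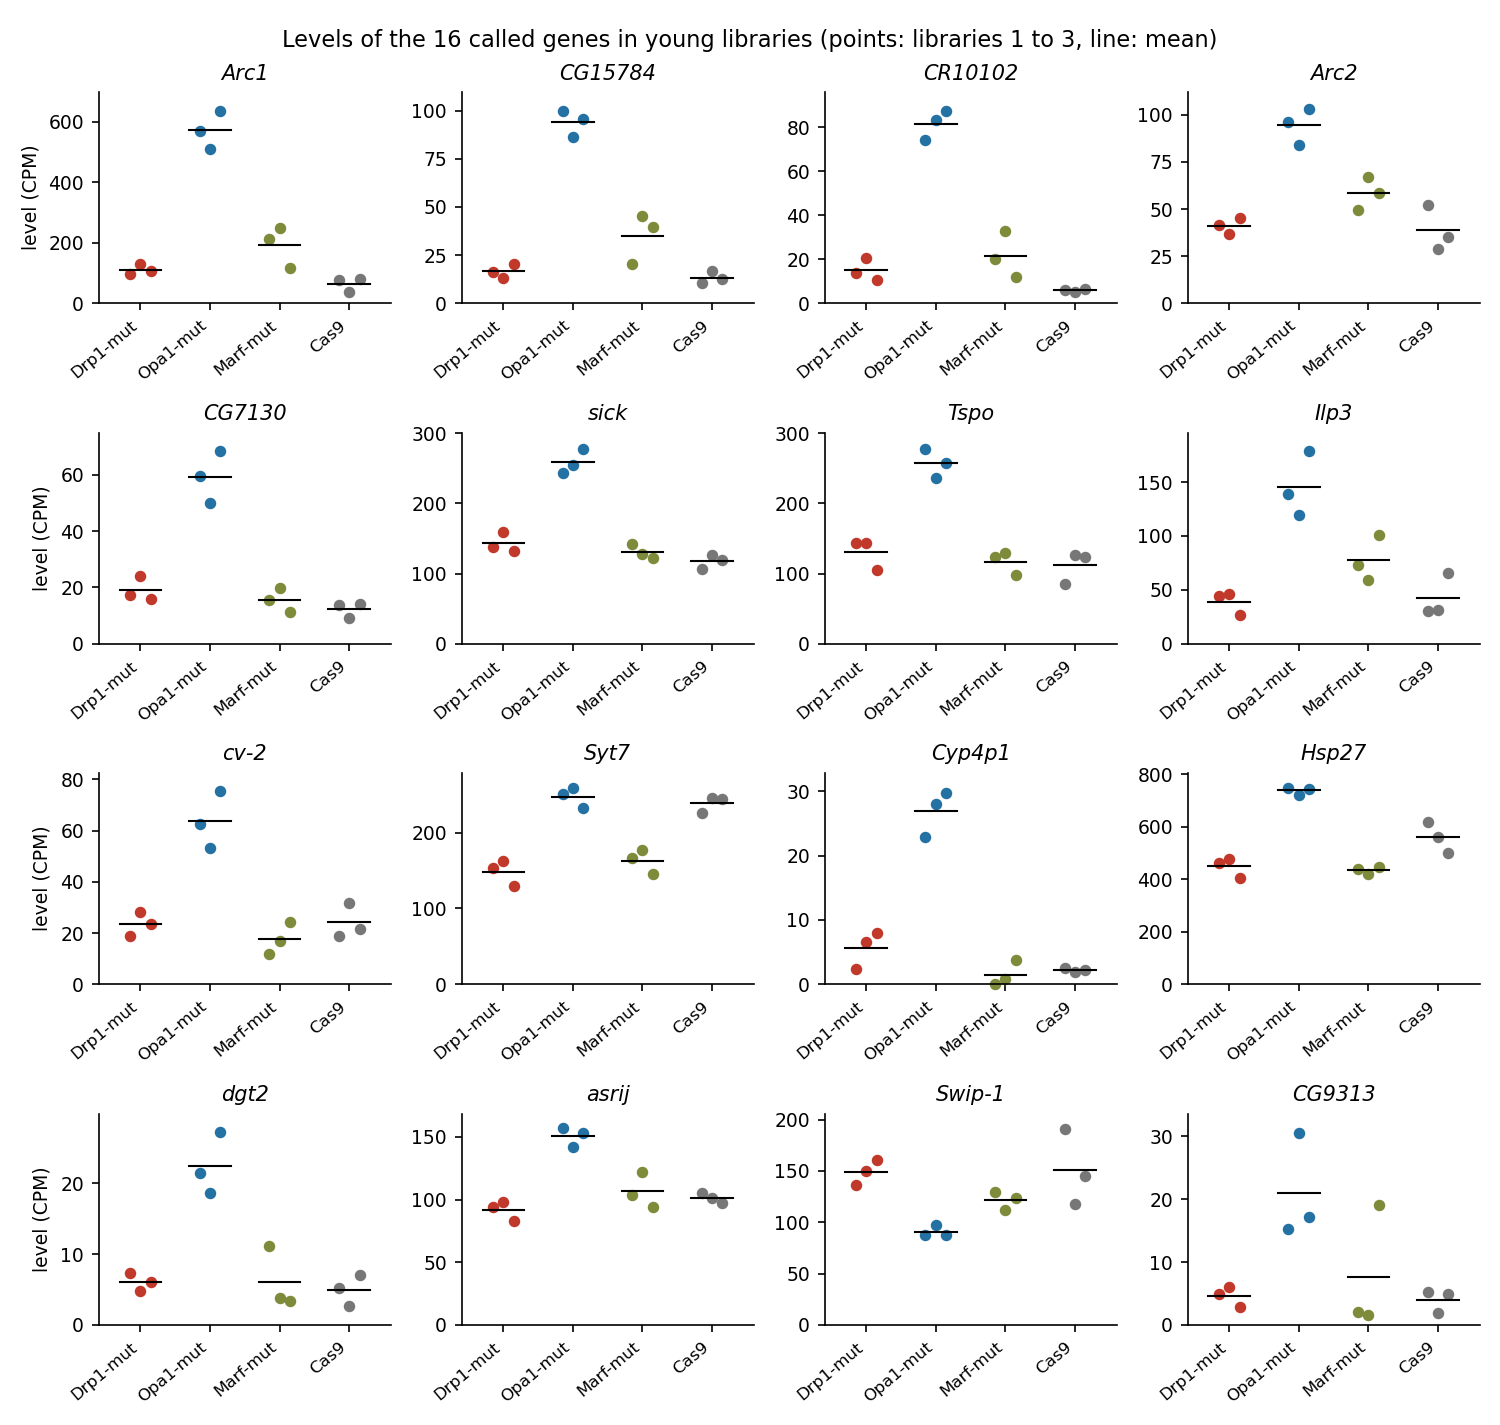
Levels of the 16 called genes in young libraries, in CPM on a linear axis from 0, with 1 panel per gene in order of adjusted p. Points are libraries 1 to 3 of Drp1-mut, Opa1-mut, Marf-mut and Cas9 and lines are group means. The Opa1-mut points stand above the Drp1-mut points in 15 panels and below them for Swip-1, and the Cas9 mean lies nearer to Drp1-mut than to Opa1-mut in all panels except Syt7.

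The smallest p belonged to Arc1, which lies in a locus of 3 called genes. Arc1 codes for a capsid protein related to retroviral Gag that carries its own mRNA between cells at the fly neuromuscular junction, and its transcript rises with neuronal activity. It stood at 97.3, 130 and 107 CPM in young Drp1-mut and at 569, 511 and 635 CPM in young Opa1-mut. Marf-mut libraries held 212, 249 and 117 CPM and Cas9 libraries 78.4, 36.4 and 78.7 CPM of it. Every Opa1-mut library was above every library of the other 3 genotypes, and relative to Opa1-mut it fell by 2.37 on the log2 scale in Drp1-mut (SE 0.13, adjusted p = 1.23e-06).

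The sister gene Arc2 stood at 41.7, 36.6 and 45.4 CPM in Drp1-mut and at 96.3, 83.9 and 103 CPM in Opa1-mut, with 52.2, 28.6 and 35.4 CPM in Cas9. Arc2 fell by 1.19 on the log2 scale (SE 0.15, adjusted p = 0.00364), and its Drp1-mut range lay inside the Cas9 range. The pseudogene CR10102 stood at 13.9, 20.4 and 10.5 CPM in Drp1-mut and at 74.1, 83.2 and 87.4 CPM in Opa1-mut, with 6.27, 5.2 and 6.64 CPM in Cas9. It was lower in Drp1-mut than in Opa1-mut by 2.51 (SE 0.23, adjusted p = 0.000174), and the Cas9 libraries were below both.

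These 3 genes lie side by side on chromosome 2R of dm6. Arc1 spans 14357927 to 14360297 on the minus strand, CR10102 spans 14360433 to 14361780 on the same strand, and Arc2 spans 14361924 to 14362825 on the plus strand. The gaps between them are 135 and 143 bases. How reads shared between Arc1, CR10102 and Arc2 were counted is not given in the sources used here, so their values may not be independent of each other. The locus lies 122 kb from Opa1, the gene targeted in the line with the higher values, and any part of this nearness was not tested. Arc1 also averaged 1020 CPM in old Marf-mut against 253 CPM in old Cas9, and Marf lies on X. A window of 200 kb to either side of Opa1 was chosen after the values were seen. In it 37 genes other than Opa1 were tested and these 3 passed, where 0.224% of all genes tested did. The rest had a median log2 fold change of 0.055. The 11 genes tested that lie between Opa1 and Arc1 were among those that did not pass. Within 200 kb of Drp1 none of 23 genes tested passed, with a median of -0.02.

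Arc1 and Arc2 belong to a list of activity-regulated genes, of which 10 of 11 were tested. The 2 Arc genes fell, the other 8 did not pass, and all 10 had a log2 fold change below 0, with a median of -0.439 against 0.001 over all genes tested. The gene kay, the fly Fos, stood at 38.4, 57.1 and 51.1 CPM in Drp1-mut and at 73.4, 99.9 and 89.3 CPM in Opa1-mut (-0.84, SE 0.17, adjusted p = 0.109). Stripe (sr), the fly Egr factor, averaged 53.9 ± 11.5 CPM in Drp1-mut, 73.3 ± 3.07 CPM in Opa1-mut and 25.8 ± 6.5 CPM in Cas9 (adjusted p = 0.646). For both genes the Drp1-mut libraries lay below the Opa1-mut libraries, and neither passed the adjusted test. The median of the list was -0.607 to -0.31 when a library was left out.

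Syt7, on chromosome 4 from 278685 to 306481, codes for a calcium sensor of vesicle release. It stood at 153, 163 and 130 CPM in Drp1-mut and at 251, 259 and 233 CPM in Opa1-mut, and here Cas9, at 226, 246 and 244 CPM, overlapped Opa1-mut while Marf-mut, at 166, 177 and 146 CPM, overlapped Drp1-mut. Syt7 fell by 0.75 on the log2 scale in Drp1-mut (SE 0.12, adjusted p = 0.0201). Of the 23 synaptic vesicle release genes tested, which do not include it, none passed (median -0.032).

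Ilp3, an insulin-like peptide made by median neurosecretory cells of the brain (3L, 9801298 to 9802120), stood at 44.2, 46.3 and 26.4 CPM in Drp1-mut and at 139, 119 and 179 CPM in Opa1-mut. Marf-mut libraries held 73.3, 59.6 and 101 CPM and Cas9 libraries 30.8, 31.2 and 65.9 CPM, so the Marf-mut values lay between the groups, as did 1 Cas9 value, and the other 2 Cas9 values lay within the Drp1-mut range. In Drp1-mut Ilp3 fell by 1.96 (SE 0.23, adjusted p = 0.00625). The call ended without Drp1-mut library 1, without Opa1-mut library 1, with the replicate number as a block (adjusted p = 0.156) and in a single fit of the 12 young libraries (adjusted p = 0.0647). Ilp3 was the 1 called gene among 11 tested peptide genes of other neurosecretory cells, whose median was 0.447. Of these, Hug, the hugin peptide gene, averaged 4700 ± 1310 CPM in Drp1-mut and 2570 ± 464 CPM in Opa1-mut (adjusted p = 0.43; adjusted p = 0.00804 with DESeq2). Capa, a diuretic peptide gene, stood at 14.7, 175 and 1980 CPM in Drp1-mut and at 6.11, 4 and 1.9 CPM in Opa1-mut, so its high mean rests on library 3. The peptide gene Dsk stood at 1830, 26.4 and 1460 CPM in Drp1-mut and at 9.17, 262 and 8.23 CPM in Opa1-mut. Capa and Dsk thus varied widely between libraries of the same suspension, and Hug, Capa and Dsk were chosen after their values were seen.

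The gene sick (sickie), the fly relative of human NAV2 with a role in axon growth (2L, 19796365 to 19958424), stood at 138, 159 and 132 CPM in Drp1-mut and at 243, 254 and 278 CPM in Opa1-mut. Cas9 libraries, at 107, 126 and 119 CPM, were below both. Relative to Opa1-mut, sick was lower in Drp1-mut by 0.86 (SE 0.12, adjusted p = 0.00623). Crossveinless 2 (cv-2), a secreted protein that binds BMP ligands (2R, 21355015 to 21379464), stood at 18.8, 28.2 and 23.5 CPM in Drp1-mut and at 62.7, 53.3 and 75.4 CPM in Opa1-mut, with 18.8, 31.9 and 21.7 CPM in Cas9. Its Drp1-mut libraries lay inside the Cas9 range, and cv-2 fell by 1.43 (SE 0.2, adjusted p = 0.00637).

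Tspo is the translocator protein of the outer mitochondrial membrane. The gene lies on 2L from 559612 to 560523. It stood at 143, 143 and 105 CPM in Drp1-mut and at 277, 236 and 258 CPM in Opa1-mut, with 85.7, 127 and 123 CPM in Cas9. Marf-mut libraries, at 124, 130 and 97.5 CPM, also lay well below Opa1-mut. Tspo was lower in Drp1-mut than in Opa1-mut by 0.99 (SE 0.14, adjusted p = 0.00625).

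Several of the remaining called genes were low. Cyp4p1, a cytochrome P450 gene (2R, 9240041 to 9242139), stood at 2.45, 6.61 and 7.94 CPM in Drp1-mut and at 22.9, 28 and 29.8 CPM in Opa1-mut, where a single UMI is worth 0.318 to 0.818 CPM in the 6 libraries. Cas9 held 2.61, 1.95 and 2.21 CPM. Relative to Opa1-mut, Cyp4p1 was lower in Drp1-mut by 2.13 (SE 0.34, adjusted p = 0.0201). Its close relative and neighbour Cyp4p2, with which reads could be split, averaged 12.4 ± 4.05 CPM in Drp1-mut, 26.4 ± 6.36 CPM in Opa1-mut and 2.91 CPM in Cas9, and did not pass (-1.17, SE 0.31, adjusted p = 0.335). For Cyp4p2 the Drp1-mut libraries, at 16.4, 12.6 and 8.26 CPM, lay between Opa1-mut and Cas9. No other of the 12 P450 and detoxification genes tested was called.

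The gene dgt2, for a subunit of the augmin complex that recruits gamma-tubulin (2L, 11989936 to 11990979), stood at 7.36, 4.81 and 6.04 CPM in Drp1-mut and at 21.4, 18.6 and 27.2 CPM in Opa1-mut (-1.91, SE 0.31, adjusted p = 0.0224). A further gene, escl, overlaps it on the same strand. The gene asrij, for an endosomal protein known from fly blood cells (2R, 22886398 to 22887578), stood at 94, 97.9 and 83.2 CPM in Drp1-mut and at 157, 142 and 153 CPM in Opa1-mut (-0.73, SE 0.13, adjusted p = 0.0353). For both genes Drp1-mut and Cas9 lay together, with Cas9 at 5.22, 2.6 and 7.08 CPM for dgt2 and at 105, 101 and 97.3 CPM for asrij. The fat body and hemocyte markers were highest in Drp1-mut library 3, where asrij was lowest, and their part in this value was not tested.

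Swip-1 (Swiprosin-1) is an actin-associated protein with calcium-binding EF hands (2L, 18977519 to 18987280). It was the 1 gene called as higher in Drp1-mut than in Opa1-mut, with its Drp1-mut libraries inside the Cas9 range. It stood at 136, 150 and 161 CPM in Drp1-mut and at 87.1, 97.2 and 87.4 CPM in Opa1-mut, with 191, 118 and 145 CPM in Cas9 (0.71, SE 0.13, adjusted p = 0.0444). Its Opa1-mut libraries were below all others. The call was at the edge: it held in 5 of 10 other settings, ended in the other 5, among them total count scaling (adjusted p = 0.124) and the replicate block (adjusted p = 0.0591), and ended whenever a library was left out.

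The other 3 called genes carry only CG numbers and were named after their values were seen. CG15784 on X stood at 16.4, 13.2 and 20.6 CPM in Drp1-mut and at 100, 86.6 and 95.6 CPM in Opa1-mut, with 10.4, 16.9 and 12.8 CPM in Cas9 (-2.45, SE 0.18, adjusted p = 2.55e-05). It had the second smallest p of all genes, and its Drp1-mut and Cas9 ranges overlapped. CG7130 averaged 19 ± 4.38 CPM in Drp1-mut and 59.3 ± 9.22 CPM in Opa1-mut (-1.66, adjusted p = 0.00438). CG9313 stood at 4.91, 6.01 and 2.86 CPM in Drp1-mut and at 15.3, 30.6 and 17.1 CPM in Opa1-mut (-2.28, adjusted p = 0.0444). Ilp3, Tspo, Cyp4p1, Hsp27, asrij, Swip-1 and CG9313 each overlap a gene on the opposite strand, so their counts may hold reads of it, and sick and Syt7 span smaller genes or transposons on both strands.

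Among the 16 genes, Arc1, CG15784 and CR10102 were called whichever of the 6 libraries was left out and under each of the 10 other settings tried. Arc2, CG7130, sick, Tspo and cv-2 lost their call without Opa1-mut library 1 and without Opa1-mut library 3, and in no other fit. Of the 6 fits with a library left out, Cyp4p1 was called in 2, Syt7, Hsp27 and asrij in 1, the one without Drp1-mut library 3, and dgt2, Swip-1 and CG9313 in none. Of the 10 other settings, Cyp4p1 was called in 9, missing in the single fit of the 12 young libraries, while asrij and dgt2 were called in 7 and CG9313 in 6. Depth as a covariate and thinned depth ended the calls of asrij, dgt2 and CG9313, and the replicate block that of asrij (adjusted p = 0.054). The number of calls was 11, 12 and 32 without Drp1-mut library 1, 2 or 3, and 3, 12 and 4 without Opa1-mut library 1, 2 or 3. The libraries with digestive enzyme and odorant-binding transcripts are Drp1-mut library 1 and Opa1-mut library 2, so the count was 11 and 12 without them. All 16 genes kept their sign in every one of these fits.

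**Figure D2:**
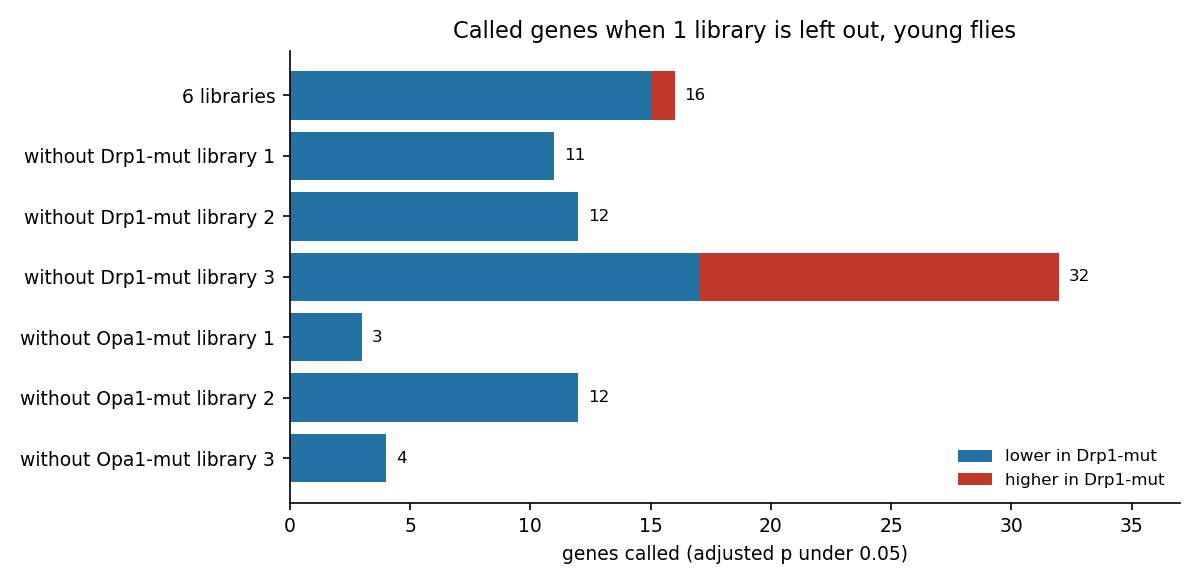
Number of genes called between young Drp1-mut and young Opa1-mut with all 6 libraries and with each library left out in turn. Blue bars count genes lower in Drp1-mut and red bars genes higher in Drp1-mut. The count is 16 with all libraries, 3 and 4 without Opa1-mut libraries 1 and 3, and 32 without Drp1-mut library 3, of which 15 are higher.

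Mitochondrial DNA carries the genes of 13 proteins, all parts of oxidative phosphorylation, and the result for them turned on Drp1-mut library 3. None of these 13 transcripts passed the test with all 6 libraries, although all 13 had a log2 fold change above 0, from 0.45 to 0.92 with a median of 0.686. COX1, the catalytic subunit of cytochrome oxidase, stood at 11200, 9800 and 5920 CPM in Drp1-mut and at 5880, 5930 and 5230 CPM in Opa1-mut, with 6580, 8310 and 6420 CPM in Cas9 (0.65, adjusted p = 0.714). CYTB, of complex III, stood at 9840, 8420 and 4990 CPM in Drp1-mut and at 4810, 4830 and 4190 CPM in Opa1-mut (0.74, adjusted p = 0.652). For all 13 transcripts libraries 1 and 2 of Drp1-mut were above every Opa1-mut library. Library 3 was above every Opa1-mut library for CYTB, within their range for 9 transcripts such as COX1, and below all of them for ND4L, COX2 and ATP8.

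As a share of all UMIs these 13 transcripts made up 7.44%, 7.17% and 4.1% in Drp1-mut and 4.1%, 4.33% and 3.7% in Opa1-mut. Marf-mut libraries held 5.14%, 5.1% and 3.31%, and Cas9 libraries 4.64%, 5.57% and 4.19%. The mean was 6.24% ± 1.85 in Drp1-mut and 4.04% ± 0.32 in Opa1-mut (SD, n = 3 each), a difference of 2.19 percentage points that did not pass an exact 2-sided permutation test (p = 0.2, where 0.1 is the smallest that 3 against 3 allows). Library 3 of Drp1-mut held the most UMIs of all. In each of the 4 young genotypes library 3 was the deepest of its group and held the lowest share there.

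Without Drp1-mut library 3, 12 of the 13 transcripts were called as higher in Drp1-mut, all but ND1, with log2 fold changes of 0.75 to 1.24 and a median of 0.941. In that fit 15 of 7282 genes tested were called as higher. COX1 was then at 0.87 (SE 0.1, adjusted p = 0.000352) and ND6, a complex I subunit, at 1.07 (SE 0.1, adjusted p = 0.000197). The mitochondrial large ribosomal RNA, lrRNA, was called as well (1.02, adjusted p = 0.00531), whereas the small ribosomal RNA, srRNA, was not and lay on the other side of 0 (-1.42, adjusted p = 0.88). Called too were 2 nuclear genes: Thor, the fly 4E-BP that holds back translation (1.07, adjusted p = 0.00175), and Vkor (1.4, adjusted p = 0.0301). Thor stood at 269, 247 and 95.9 CPM in Drp1-mut and at 103, 118 and 144 CPM in Opa1-mut, so that library 3 of Drp1-mut was below every Opa1-mut library and the other two above. Vkor stood at 59.7, 43.2 and 33.4 CPM in Drp1-mut and at 16.8, 15.3 and 25.3 CPM in Opa1-mut, and was named after its values were seen. With all 6 libraries and log2 depth as a covariate, 7 of the 13 mitochondrial transcripts were called higher, and the median of the 13 was 0.984. In that fit 10 of 7158 genes tested were called as higher. Drp1-mut library 3 held 2889269 UMIs and the other 5 libraries 1315343 to 1680324. The covariate thus rests mostly on library 3, and this fit is no second test beside leaving it out. When any library other than Drp1-mut library 3 was left out, no gene was called as higher in Drp1-mut. The lowest median of the 13 transcripts in these fits was 0.503, without Drp1-mut library 1.

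In old flies the same 13 transcripts were all called as higher in Drp1-mut, with a median of 1.779, where 4.61% of all genes tested were called higher. Old Drp1-mut libraries held a share of 6.65%, 8.33% and 7.16% and old Opa1-mut libraries 2.75%, 2.18% and 2.2%. The old Drp1-mut libraries held 684175 to 1148217 UMIs, while old Opa1-mut libraries held 1468850 to 1843669, so depth moves with genotype there. All 13 were called with libraries thinned to the lowest depth (median 1.768) and 5 with depth as a covariate (median 1.373).

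**Figure D3:**
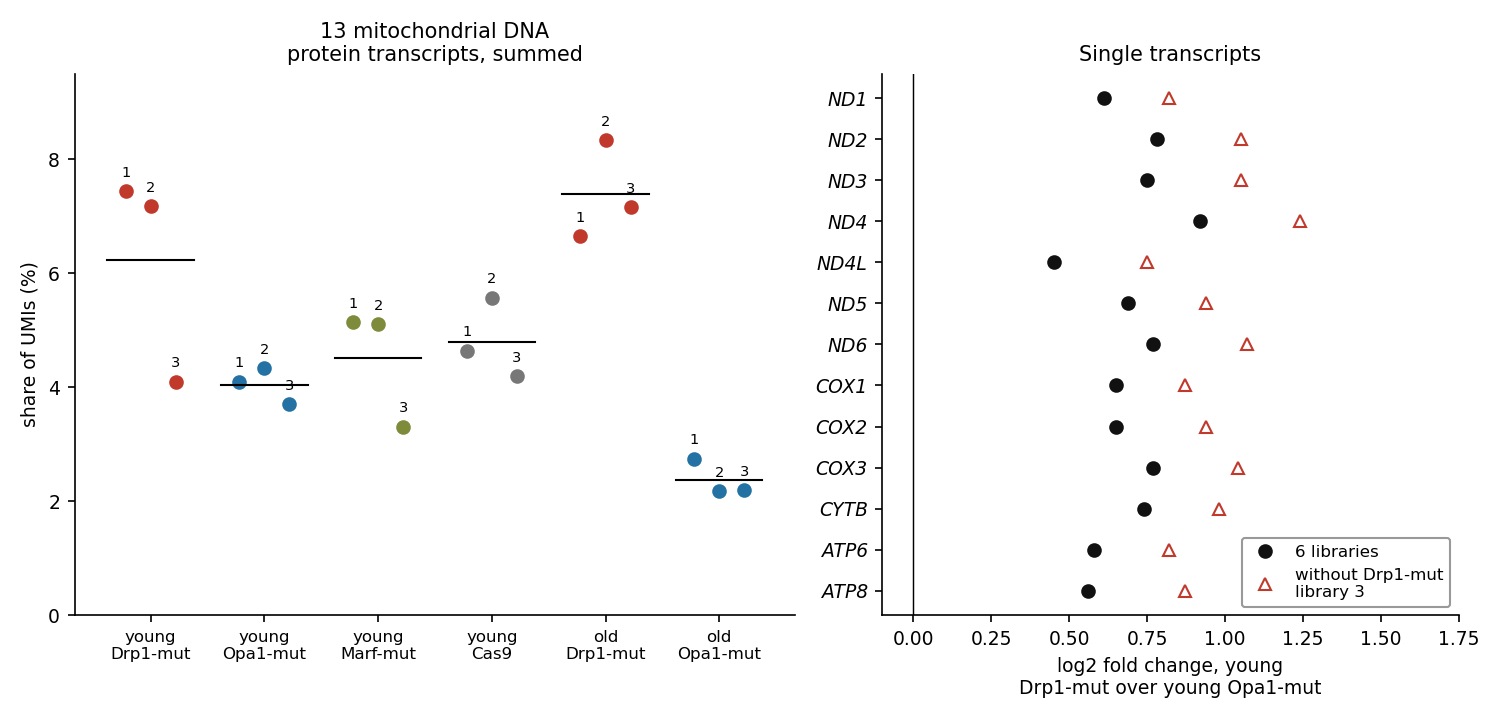
Left, share of UMIs in percent from the 13 protein transcripts of mitochondrial DNA, per library (number: library) with the group mean as a line. Right, log2 fold change of each transcript between young Drp1-mut and young Opa1-mut with 6 libraries (filled) and without Drp1-mut library 3 (open). Young Drp1-mut libraries 1 and 2 stand at 7.44% and 7.17% and library 3 at 4.1%, level with Opa1-mut, and every transcript moves to a larger value when library 3 is left out.

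No nuclear gene of oxidative phosphorylation passed the test. Of 32 complex I genes and 35 genes of complexes II to V tested none passed, with medians of -0.005 and -0.035. None of 10 genes for mitochondrial DNA maintenance and transcription passed (median 0.036), nor any of 74 mitochondrial ribosome genes (0.01) or 19 genes of the tricarboxylic acid cycle (0.022). Chaperones and proteases of mitochondria, with 13 tested, had a median of -0.11 and no call, with the chaperonin gene Hsp60A at 554 ± 11.3 CPM in Drp1-mut and 618 ± 27.4 CPM in Opa1-mut (adjusted p = 0.805). Pink1, the kinase that marks damaged mitochondria, averaged 77.5 ± 4.11 CPM in Drp1-mut and 89.2 ± 8.66 CPM in Opa1-mut (adjusted p = 0.78). None of the 23 mitophagy and autophagy genes tested passed (median 0.012).

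Glycolysis genes and Ldh did not pass the adjusted test. Lactate dehydrogenase (Ldh), which turns pyruvate into lactate (3L, 6259105 to 6262694), stood at 94, 46.3 and 83.9 CPM in Drp1-mut and at 313, 226 and 388 CPM in Opa1-mut, with 27.9, 61.1 and 39 CPM in Marf-mut and 19.3, 20.2 and 12.4 CPM in Cas9. Both groups were above every Cas9 library and did not overlap each other. The log2 fold change was -2.06 (SE 0.32), with an adjusted p of 0.204 in edgeR's quasi-likelihood test and of 5.51e-14 in DESeq2. It ranged from -2.23 to -1.8 over the libraries left out and was called without Drp1-mut library 2 (adjusted p = 0.0291), with the replicate block (adjusted p = 5.93e-05) and in single fits of all 24 libraries (adjusted p = 0.0277) or the 12 young libraries (adjusted p = 0.0328).

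All 12 glycolysis genes tested had a log2 fold change below 0, from -0.55 to -0.05, with none called and a median of -0.23 against 0.001 over all genes. Hex-A, the hexokinase that starts glycolysis, stood at 278, 274 and 264 CPM in Drp1-mut and at 348, 447 and 393 CPM in Opa1-mut, with 216, 251 and 272 CPM in Cas9 (-0.55, SE 0.11, adjusted p = 0.111). Its Drp1-mut libraries varied by an SD of 7.22 CPM and lay below every Opa1-mut library. Pgi, the next enzyme, averaged 245 ± 14.6 CPM in Drp1-mut and 300 ± 34.7 CPM in Opa1-mut (-0.3, adjusted p = 0.651). The median of the list was -0.28 to -0.196 when a library was left out and -0.18 with depth as a covariate. In old flies 7 of the 12 fell in Drp1-mut relative to Opa1-mut, where 5.63% of all genes tested did, with a median of -0.362. With depth as a covariate none of them was called there (median -0.166), and with a library left out 4 to 9 were.

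Among stress genes, the heat shock list had 1 call. Hsp27, a small heat shock protein (3L, 9384063 to 9385694), stood at 462, 479 and 407 CPM in Drp1-mut and at 750, 723 and 745 CPM in Opa1-mut, and Cas9 libraries, at 617, 561 and 501 CPM, lay between them. In Drp1-mut Hsp27 fell by 0.73 (SE 0.12, adjusted p = 0.0209). Of 20 heat shock and co-chaperone genes tested 17 were below 0, with a median of -0.238, and Hsp27 alone was called. Hsp26 stood at 997, 1070 and 829 CPM in Drp1-mut and at 1370, 1450 and 1630 CPM in Opa1-mut (-0.63, SE 0.15, adjusted p = 0.262). Hsp70Ab, 1 of several near-identical Hsp70 copies whose reads may be split, averaged 844 ± 61.1 CPM in Drp1-mut and 1260 ± 105 CPM in Opa1-mut (-0.58, adjusted p = 0.238). Hsp26 and Hsp70Ab, chosen after their values were seen, had libraries that did not overlap and were called by DESeq2 (adjusted p = 0.012 and 0.00879).

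The ATF4 response, the program that answers mitochondrial and amino acid stress, had no call among 13 genes tested and a median of -0.015. The gene crc, the fly ATF4, averaged 594 ± 39 CPM in Drp1-mut and 635 ± 64.1 CPM in Opa1-mut (adjusted p = 0.907). Xrp1, a stress transcription factor, stood at 357, 420 and 359 CPM in Drp1-mut and at 523, 552 and 474 CPM in Opa1-mut (-0.46, SE 0.12, adjusted p = 0.287). Of 34 aminoacyl-tRNA synthetase genes none passed (median -0.068), with SerRS, the seryl enzyme, at 76.7 ± 2.77 CPM in Drp1-mut and 114 ± 13.2 CPM in Opa1-mut (adjusted p = 0.195). GstO3, an omega glutathione transferase, averaged 32.6 ± 10.6 CPM in Drp1-mut and 65.5 ± 12.3 CPM in Opa1-mut (adjusted p = 0.245). The amino acid transporter gene path averaged 59.3 ± 4.11 CPM in Drp1-mut and 115 ± 38.6 CPM in Opa1-mut (adjusted p = 0.245). Xrp1, SerRS, GstO3 and path were chosen after their values were seen, and each was lower in every Drp1-mut library than in any Opa1-mut library. Libraries that did not overlap occurred on both sides. In the ATF4, synthetase, antioxidant and transporter lists 1, 0, 2 and 2 genes were so on the higher side. On the lower side 1, 6, 3 and 3 were. Over all genes tested the shares were 6.33% higher and 6.29% lower. PCNA, the replication clamp, averaged 5.73 ± 1.28 CPM in Drp1-mut and 16.5 ± 6.08 CPM in Opa1-mut (adjusted p = 0.252).

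Cytosolic ribosome genes leaned to the lower side with all 6 libraries. Of 82 tested none passed and 80 were below 0, with a median of -0.158. Ribosomal protein transcripts made up 11.4%, 11.4% and 8.44% of UMIs in Drp1-mut and 12.5%, 11.6% and 11.9% in Opa1-mut, so the deepest library was again apart. Without it the median was 0.012, and with depth as a covariate it was 0.044.

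**Figure D4:**
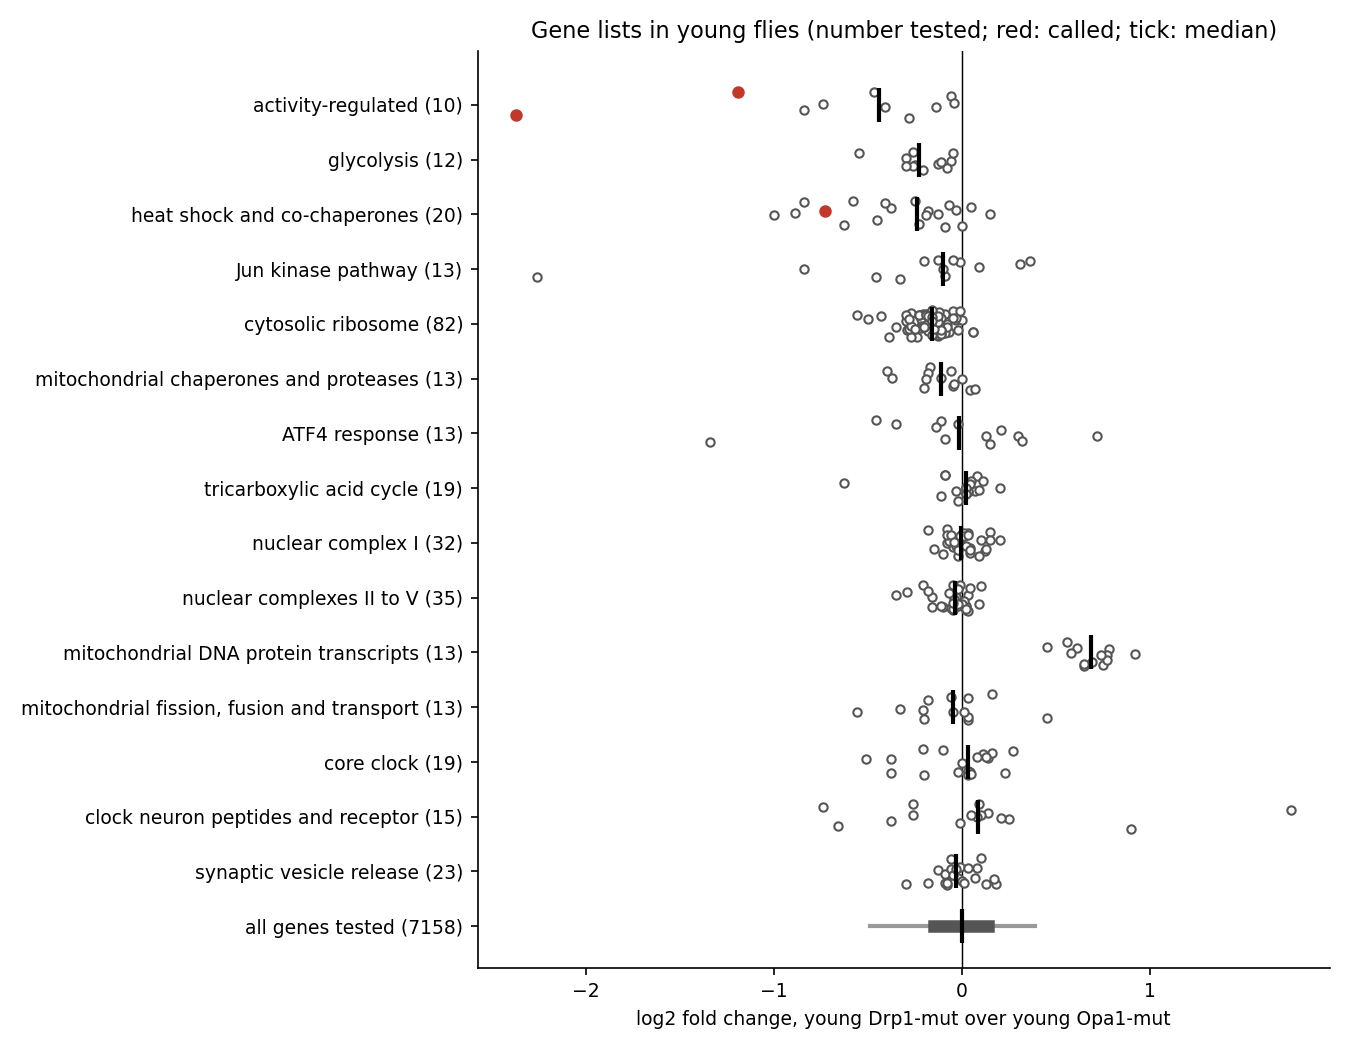
Log2 fold changes between young Drp1-mut and young Opa1-mut for the members of 15 gene lists, with the number tested in brackets. Circles are genes, red circles are called genes and ticks are medians, and the bottom row gives the median, the interquartile range and the 5th to 95th percentile of all 7158 genes. Activity-regulated and glycolysis genes all lie below 0, the 13 mitochondrial DNA transcripts all lie above 0, and red circles are Arc1, Arc2 and Hsp27.

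No core clock gene passed the test, with 19 tested and a median of 0.03. The timeless gene tim stood at 949, 1130 and 779 CPM in Drp1-mut and at 1140, 876 and 1030 CPM in Opa1-mut (-0.1, SE 0.16, adjusted p = 0.934). The period gene per averaged 110 ± 25.8 CPM in Drp1-mut and 142 ± 35.3 CPM in Opa1-mut (adjusted p = 0.765), and Clk, which drives both, averaged 28.7 ± 8.65 CPM in Drp1-mut and 39.5 ± 7.33 CPM in Opa1-mut (adjusted p = 0.742). The gene vri, for the repressor of Clk, averaged 462 ± 128 CPM in Drp1-mut and 466 ± 37.9 CPM in Opa1-mut (adjusted p = 0.991), and the blue-light receptor gene cry averaged 365 ± 113 CPM in Drp1-mut and 310 ± 57.4 CPM in Opa1-mut (adjusted p = 0.903). The ranges of the 2 groups overlapped for tim, per, Clk, vri and cry.

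None of 15 clock neuron peptide and receptor genes passed. Pdf, the peptide of the ventral lateral neurons, stood at 15700, 11100 and 14400 CPM in Drp1-mut and at 14400, 11800 and 11000 CPM in Opa1-mut (0.14, SE 0.29, adjusted p = 0.953). The peptide genes NPF, ITP and CCHa1, chosen after their values were seen, varied between libraries of a group. NPF stood at 892, 689 and 2670 CPM in Drp1-mut and at 1060, 46 and 155 CPM in Opa1-mut, and ITP at 2400, 5320 and 3580 CPM in Drp1-mut and at 1980, 577 and 3500 CPM in Opa1-mut. CCHa1 stood at 707, 695 and 487 CPM in Drp1-mut and at 716, 891 and 1360 CPM in Opa1-mut (adjusted p = 0.686). For NPF and ITP the ranges of the 2 groups overlapped, and for CCHa1 the highest Drp1-mut library lay just under the lowest Opa1-mut library.

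The other age was used as a second look, with flies and suspensions that did not enter the young comparison. Old Drp1-mut against old Opa1-mut gave 722 calls among 7050 genes tested (10.2%), 325 higher (4.61%) and 397 lower (5.63%), by the same edgeR test. With total count scaling it gave 139 higher and 684 lower, and with depth as a covariate 38 calls in all. The old groups also differed in marker levels: muscle markers summed to 43 to 90.9 CPM in old Drp1-mut (8 to 11 of 13 present, TpnC41C at 0) and 12.2 to 16.6 CPM in old Opa1-mut (5 to 7 present), and glial markers to 739 to 1240 CPM in old Drp1-mut and 653 to 852 CPM in old Opa1-mut (10 or 11 of 12 present, Mdr65 at 0). Clock neuron markers summed to 23500, 11400 and 10500 CPM in old Drp1-mut and 22400, 23100 and 15600 CPM in old Opa1-mut. The part of these markers in the old calls was not tested. Of the 16 genes called in young flies, 15 had the same sign in old flies and 13 were also called there. With depth as a covariate 9 of the 16 were called in old flies, the other 4 of the 13 being sick, Tspo, Ilp3 and Cyp4p1. Arc1 stood at 455, 456 and 437 CPM in old Drp1-mut and at 2110, 2360 and 2020 CPM in old Opa1-mut, a log2 fold change of -2.26 (SE 0.1, adjusted p = 2.44e-10), close to the young value of -2.37 although the level of both groups was higher. Tspo was at -1.66 (SE 0.16, adjusted p = 5.81e-05), sick at -0.84 (adjusted p = 5.44e-05), cv-2 at -2.45 (adjusted p = 5.96e-08) and Ilp3 at -1.68 (adjusted p = 0.000167) in old flies. The 3 genes not called there were Syt7 (-0.06, adjusted p = 0.778), Hsp27 (0.13, adjusted p = 0.414) and Swip-1 (0.18, adjusted p = 0.514).

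The targets themselves passed the test in old flies. The log2 fold change of old Drp1-mut over old Opa1-mut was -0.59 for Drp1 (SE 0.15, adjusted p = 0.0213), and for Opa1 it was 0.61 (SE 0.13, adjusted p = 0.00661). With depth as a covariate neither passed: Drp1 was at -0.34 (adjusted p = 0.834) and the value of Opa1 was 0.63 (adjusted p = 0.474). A direct test of the young against the old difference did not pass for Drp1 (0.01, adjusted p = 0.996) or Opa1 (-0.18, adjusted p = 0.697).

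**Figure D5:**
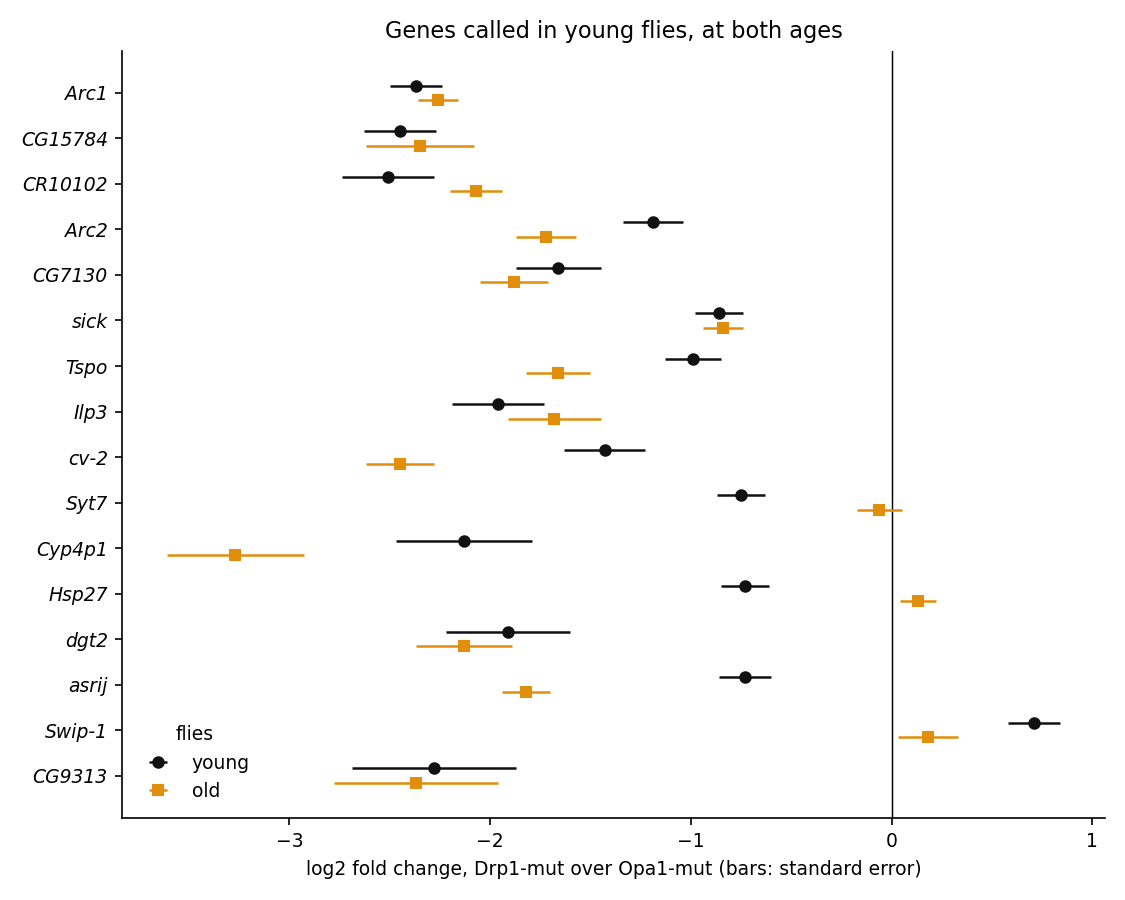
Log2 fold change of Drp1-mut over Opa1-mut for the 16 genes called in young flies, in young (circles) and old flies (squares), with standard errors. Arc1, CG15784, sick and CG9313 have nearly the same value at both ages, and Syt7, Hsp27 and Swip-1 lie near 0 in old flies.

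That test of the difference between ages gave 96 calls among 7411 genes (1.3%), 43 higher (0.58%) and 53 lower (0.715%) for young minus old, and 3 of the 16 genes were among them. Syt7 (young minus old -0.71, adjusted p = 0.0373) and Hsp27 (-0.88, adjusted p = 0.00853) differed between the mutants in young flies and not detectably in old ones, while asrij (1.07, adjusted p = 0.00677) differed more in old flies. With depth as a covariate the calls between ages fell to 2 in all, and Syt7 (adjusted p = 0.616), Hsp27 (adjusted p = 0.292) and asrij (adjusted p = 0.0541) were no longer called. Syt7 was called in 3 of 12 fits with a library left out. For Arc1 the difference between ages was -0.12 (adjusted p = 0.788).

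Counts were also summed per suspension, which gave 8 sums, with age and genotype as terms. Each genotype had a single suspension at each age, so no suspension was replicated. The spread in this test is how far differences between genotypes vary between the ages. This test holds the young libraries and is thus not independent of the young calls. It called 32 of 8707 genes (0.368%), 23 lower (0.264%) and 9 higher (0.103%) in Drp1-mut, and 9 of the 16 genes were among them. These were Arc1 (-2.31, SE 0.15, adjusted p = 0.000747), CR10102, CG15784, CG7130, sick (-0.87, adjusted p = 0.00854), Tspo (-1.34, adjusted p = 0.0149), cv-2, Cyp4p1 and CG9313. Hex-A, not called in young flies alone, was called here (-0.73, SE 0.11, adjusted p = 0.0373). When a suspension was left out, Arc1, CR10102, CG7130, Tspo and Cyp4p1 were called each time. Without the young Drp1-mut suspension CG15784 (adjusted p = 0.0935), sick (adjusted p = 0.0906), CG9313 (adjusted p = 0.204) and Hex-A (adjusted p = 0.15) lost their calls. Without the old Drp1-mut suspension cv-2 (adjusted p = 0.0868), CG9313 (adjusted p = 0.132) and Hex-A (adjusted p = 0.225) did, and CG9313 also without the old Opa1-mut suspension (adjusted p = 0.0629). Of the 9 genes higher in Drp1-mut, 8 had 51.9% to 95.2% of their Drp1-mut UMIs in a single library. For 7 of them, digestive enzyme genes such as Jon99Cii (657, 31.2 and 6.04 CPM in young Drp1-mut and 3.82, 4 and 2.53 CPM in young Opa1-mut), that library was young Drp1-mut library 1.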

How the data were processed

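RNA was measured in sorted GFP-positive cells of 4 genotypes at 2 ages, in 24 libraries of 8 suspensions. Poly(A) RNA was made into Smart-seq3 libraries with UMIs and tagmented with Nextera XT, per the labels' protocols. The authors deposited a table of UMI counts per gene, and the submitters' processing notes name STAR and the build dm6. The counting program, annotation and strand setting were not given in the sources used here, so overlapping and antisense genes cannot be told apart. Deposited comparison tables were not used.

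The table holds 15610 genes, 527 of them without a UMI. Depth was 684175 to 2889269 UMIs per library, and 1 UMI was worth 0.318 to 0.818 CPM in the 6 libraries. Counts were tested with edgeR 4.0.16 in R 4.3.3: TMM scaling, filterByExpr, the robust quasi-likelihood F test and Benjamini-Hochberg adjustment over all genes tested, called at an adjusted p under 0.05. Each standard error is the absolute log2 fold change over the square root of F. Every adjusted p is from this test unless DESeq2 (1.42.0, Wald test) is named. The test between ages used 12 libraries, and that over summed suspensions modelled genotype and age, leaving 3 residual degrees of freedom. CPM levels use TMM factors over all 24 libraries. The share of mitochondrial transcripts was tested by an exact permutation test. The code was tested on simulated counts. Coordinates are from the Ensembl annotation of BDGP6 (dm6).

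Genes, lists and tests were chosen with earlier results of these data known, and the gut and odorant-binding lists after the libraries were seen. Named genes are the targets, up to 12 called genes per direction with the largest change, libraries that do not overlap and at least 20 UMIs in the higher group, up to 4 called members of each list, a set list of genes, and the 5 with the smallest p in the other tests; CG genes were left out of the second group. The main fits did not pair libraries by replicate number. Same-numbered Drp1-mut and Opa1-mut libraries correlated at 0.00865 to 0.0597 in young and -0.041 to 0.0662 in old flies, under the 0.1 asked for. Libraries of different number correlated at -0.07 to 0.00556 in young flies, below every same-numbered pair, and at -0.125 to 0.0988 in old flies. The cut of 0.1 thus does not show that the libraries are unpaired. Alternatives were other scalings, no filter, DESeq2, the block, thinned depth, depth as a covariate, all 24 or the 12 young libraries in a single fit, mitochondrial and ribosomal RNA left out, and each library left out.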

Additional observations from a re-analysis of the deposited data

Results flagged for a closer look

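Of the 96 genes whose difference between the mutants itself differed between young and old flies, by the interaction term of edgeR's quasi-likelihood test over 12 libraries, 11 are given here: genes described in the young comparison or members of its lists, and those with the smallest p. Values are young minus old differences of the log2 fold change of Drp1-mut over Opa1-mut. The gene kay had 1.61 (SE 0.24, adjusted p = 0.00564), with -0.84 in young and -2.47 in old flies, and asrij had 1.07 (adjusted p = 0.00677), with -0.73 and -1.82. PCNA had 2.44 (adjusted p = 0.0406), with -1.54 and -3.97, and SerRS had 0.9 (adjusted p = 0.0465), with -0.58 and -1.49. For these 4 genes Drp1-mut was lower at both ages, by more in old flies.

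Hsp27 had -0.88 (SE 0.14, adjusted p = 0.00853), with -0.73 in young and 0.13 in old flies, and Syt7 had -0.71 (adjusted p = 0.0373), with -0.75 and -0.06. The kinase gene sgg, the GSK3 of the fly clock, had -0.93 (SE 0.18, adjusted p = 0.0275), with -0.38 in young and 0.52 in old flies. OtopLa, an otopetrin proton channel gene, had -1.09 (adjusted p = 0.00564), with -0.35 and 0.72. CG34220 had -4.22 (SE 0.41, adjusted p = 0.000122): it stood at 31.9, 27.6 and 16.8 CPM in young Drp1-mut and 52, 61.3 and 50.7 CPM in young Opa1-mut, and at 55.8, 104 and 121 CPM in old Drp1-mut and 13.7, 10.2 and 9.86 CPM in old Opa1-mut. CG13117 had 2.35 (adjusted p = 0.00632), with 0.26 and -2.1. Act57B, a muscle actin gene not tested in young flies alone, had -7.93 (SE 1.14, adjusted p = 0.00546), and at under 1 CPM in young Drp1-mut and 0 in 2 of 3 old Opa1-mut libraries this value is no measure of size.

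The genes kay, asrij, Hsp27, CG34220, Act57B, OtopLa and CG13117 were called in all 12 fits that left out a library, sgg in 5, Syt7 and PCNA in 3 and SerRS in 1. With depth as a covariate CG34220 was called (adjusted p = 0.00734) and the other 10 were not. Old Drp1-mut libraries were shallower than old Opa1-mut libraries, and the part of depth in these differences cannot be told apart from genotype in old flies.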

How the results depend on the processing

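The young count of 16 was 27 without the filter on low counts, 28 with DESeq2, 32 with all 24 libraries in a single fit, 26 with depth as a covariate (10 of them higher) and 3 to 32 when a library was left out. It lay between 12 and 19 under the other 6 settings, among them 18 with total count scaling and 19 with the replicate block. The old count of 722 was 402 with thinned depth, 38 with depth as a covariate and 360 to 843 when a library was left out. The count of 96 between ages was 149 without the filter, 166 with DESeq2, 14 with thinned depth, 182 with all 24 libraries, 2 with depth as a covariate and 10 to 184 when a library was left out. The count of 32 over suspensions was 116 without the filter, 74 with DESeq2 and 18 to 153 when a suspension was left out. Without Opa1-mut library 1 or 3 only 3 and 4 young genes were called, the cause of which was not tested.

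Among the genes described for the young comparison, tim and vri changed sign, neither of them called: tim was at 0.04 with depth as a covariate and from -0.23 to 0.03 when a library was left out, and vri was at 0.16 with depth as a covariate and from -0.24 to 0.16. Of the other values of these genes in young flies, 901 kept their sign and side of the threshold, 52 became calls and 67 lost them. The main fits do not pair libraries by replicate number. The replicate block gave 19 calls in young flies, 695 in old flies and 110 between ages, with the mitochondrial share unchanged at 2.19 percentage points. A single suspension per group limits all of these tests.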

Other observations

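Gene groups beside those described had no call in young flies. Medians are log2 fold changes of Drp1-mut over Opa1-mut, against 0.001 over all genes. Transmitter synthesis and vesicular transporters (15 tested) had a median of 0.028, voltage-gated and leak channels (25) -0.067, nicotinic acetylcholine receptors (9) 0.101 and the dpr and DIP surface proteins (30) 0.059. The proteasome (32) had 0.014, the unfolded protein response of the endoplasmic reticulum (18) 0.098 with 12 members above 0, the Jun kinase pathway (13) -0.103, lipid metabolism (12) -0.165 and innate immunity (12) -0.353 with 9 below 0. Fission, fusion and transport genes (13) had -0.047, cristae and prohibitin genes (7) -0.044, pyruvate and glycerol phosphate genes (11) -0.071, sugar and amino acid transporters (12) -0.125, antioxidant genes (19) -0.049, and DNA damage and replication genes (11) -0.044.

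In old flies 14 of the 34 aminoacyl-tRNA synthetase genes were lower in Drp1-mut than in Opa1-mut by edgeR's test (median -0.476), where young flies had none and 5.63% of all genes tested were lower in old flies. 5 of the mitochondrial chaperone and protease genes were lower (median -0.421), 8 synaptic vesicle release genes were higher (median 0.297) and 5 core clock genes were higher (median 0.16), where 4.61% of all genes were higher. With a library left out 9 to 11 synthetase, 3 to 5 chaperone, 1 to 10 synaptic and 2 to 5 clock genes were called. With depth as a covariate none of these members was called in old flies, where the calls over all genes fell to 38. Old Drp1-mut libraries were shallower than old Opa1-mut libraries, and the difference between ages was not tested for the lists. The odorant-binding genes Obp19d and Obp56d were called over suspensions, with 99.5% and 97.7% of their Opa1-mut UMIs in young Opa1-mut library 2.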
